A study of Canis lupus familiaris with 15 samples.

Results

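The transcription factor genes JUN (ENSCAFG00000018897) and YY1 (ENSCAFG00000017894), 2 of the 23630 genes counted, were followed in the corpora lutea (CL) of 15 bitches across 4 conditions. Both were selected on their measured values, because they stood out in contrasts of the study with the prepartum luteolysis group: JUN in mid-gestation over luteolysis and in luteolysis over antigestagen, and YY1 in luteolysis over antigestagen. Their levels and ratios are therefore given as a description, and 1 of these ratios was tested, that of YY1 in luteal regression over mid-gestation, since neither of these groups entered its selection. By quantitative PCR the study also found JUN higher at mid-gestation and after antigestagen than at luteolysis. For YY1 its PCR showed no significant difference between luteolysis and antigestagen.

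All animals were healthy cross-breed bitches aged 2 to 8 years, and the CL was removed at ovariohysterectomy. The mid-gestation group held 5 pregnant dogs on days 35 to 40 after ovulation (replicates 1 to 5: Nescafe, Turgay, Dardanel, Gold and Kurtulus). The antigestagen group held 5 pregnant dogs on days 40 to 45 (replicates 1 to 5: Citir, Suzan, Birnur, Seran and Zeynep), which had received the progesterone receptor blocker aglepristone at 10 mg per kg body weight in 2 applications 24 h apart and were operated on 24 h after the last of them. The luteolysis group held 3 pregnant dogs (replicates 1 to 3: Amy, Kimba and Senta). Removal of their CL was timed by a run of 3 plasma progesterone values under 2 to 3 ng/ml. Blood for this was drawn 6 h apart, starting at day 58. The luteal regression group held 2 non-pregnant dogs at day 65 (replicates 1 and 2: Lissy and Mara), and a further dog that the study sequenced in this group was not analysed here. Days of gestation, pregnancy and treatment differ between the groups together and cannot be told apart. The labels give no collection site or sequencing lane for the single dogs, and the date-like number that opens each title is the same for all 15 dogs, so no comparison within a batch was possible. One free-text label of Nescafe carries the group number of the antigestagen dogs, whereas its title and its condition place it at mid-gestation, where it was kept.

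JUN encodes c-Jun, a leucine zipper protein that pairs with other Jun proteins or with Fos proteins to form the transcription factor AP-1. It belongs to the immediate early genes, which are transcribed within minutes of a stimulus, and its protein is activated by the JNK kinases under stress. YY1 is a ubiquitous zinc finger protein that activates or represses genes depending on its partners, among them Polycomb proteins, the INO80 chromatin remodelling complex, histone deacetylases and arginine methyltransferases. The CL is a transient endocrine gland that makes progesterone, and in the pregnant dog its function ends abruptly before parturition, whereas it fades slowly in the absence of pregnancy.

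Reads assigned to genes numbered from 8558743 (Citir) to 26284315 (Kurtulus) per library, with a median of 18313707. JUN was counted between 240 and 4346 times per dog and YY1 between 1594 and 5739 times, so that counting error alone was at most 6.45% for JUN and 2.5% for YY1. For YY1 the luteal regression dogs lay no farther apart than counting error, and the luteolysis dogs not far beyond it. Levels are given as CPM, the counts scaled to library size with TMM factors. RNA came from whole trimmed CL, and a lower level can reflect fewer cells of a type or less RNA per cell, which bulk samples cannot tell apart.

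JUN was lowest at prepartum luteolysis. In the luteolysis dogs its level was 18 CPM in Amy, 18.5 CPM in Kimba and 28.7 CPM in Senta. In the antigestagen dogs it was 134 CPM in Citir, 96.9 CPM in Suzan, 135 CPM in Birnur, 69.6 CPM in Seran and 118 CPM in Zeynep. At mid-gestation it was 58.7 CPM in Nescafe, 86.6 CPM in Turgay, 37.9 CPM in Dardanel, 227 CPM in Gold and 53.5 CPM in Kurtulus, and in luteal regression it was 80.5 CPM in Lissy and 33.3 CPM in Mara. All 3 luteolysis dogs lay below each of the 12 other dogs, whereas the antigestagen, mid-gestation and luteal regression dogs overlapped with each other. Of all 14922 genes in the fit, 182 (1.22%) had the luteolysis dogs below all other dogs and 215 (1.44%) above all of them. Since JUN and YY1 were chosen for low values in this group, nothing was read from their being among them.

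YY1 was also lowest at luteolysis, within a much narrower range. Its level was 162 CPM in Amy, 159 CPM in Kimba and 152 CPM in Senta at luteolysis. In the antigestagen group it was 177 CPM in Citir, 175 CPM in Suzan, 214 CPM in Birnur, 232 CPM in Seran and 294 CPM in Zeynep. At mid-gestation Nescafe had 175 CPM, Turgay 226 CPM, Dardanel 244 CPM, Gold 195 CPM and Kurtulus 206 CPM, and in luteal regression Lissy had 198 CPM and Mara 194 CPM. The luteolysis dogs were again below all 12 others, although Amy lay close to Suzan and Nescafe (175 CPM each), and the other 3 groups overlapped.

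**Figure D1:**
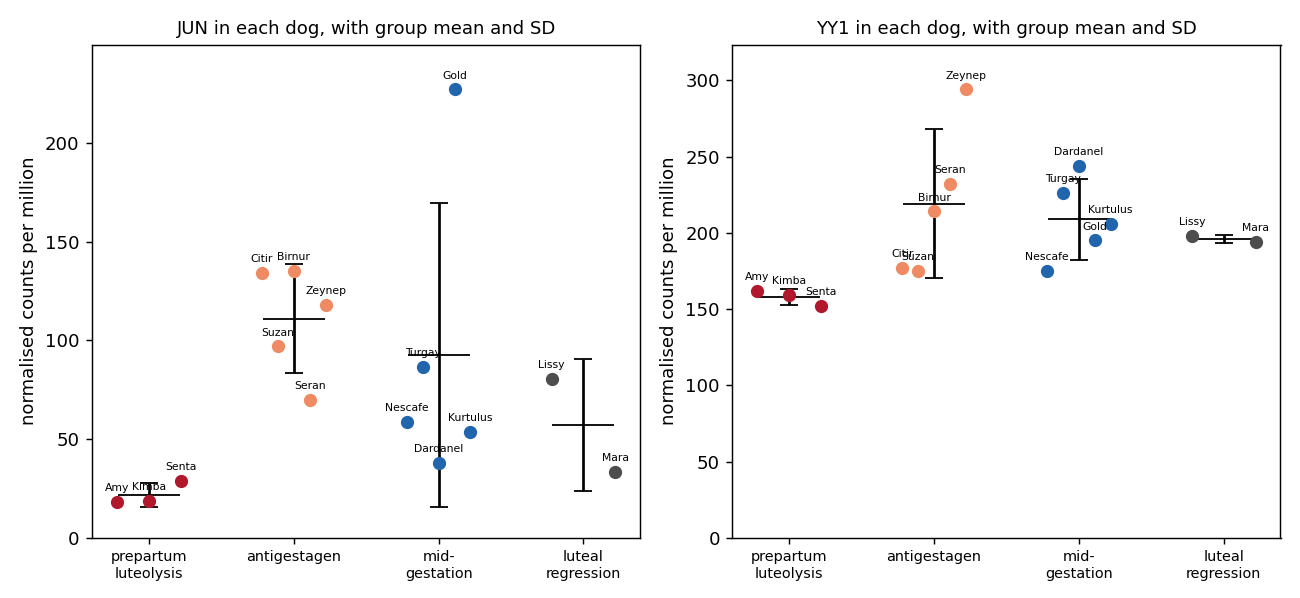
Normalised CPM of JUN (left) and YY1 (right) in each dog (points, named) by group, with the group mean (horizontal line) and SD (vertical bar). All 3 luteolysis dogs lie below the other 12 dogs for both genes, and Gold has the highest JUN at 227 CPM.

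The group means of JUN ranked in the order antigestagen (111 CPM ± 27.6, SD, n = 5), mid-gestation (92.7 CPM ± 77.0, SD, n = 5), luteal regression (56.9 CPM ± 33.4, SD, n = 2) and luteolysis (21.8 CPM ± 6.02, SD, n = 3). The dogs of the first 3 groups overlapped, and differences in JUN between these groups were not tested. For YY1 the order of the means was the same, from antigestagen (219 CPM ± 48.9, SD, n = 5) through mid-gestation (209 CPM ± 26.6, SD, n = 5) and luteal regression (196 CPM ± 2.73, SD, n = 2) to luteolysis (158 CPM ± 5.09, SD, n = 3). Here too the dogs of the first 3 groups overlapped, and of the differences between these groups only luteal regression over mid-gestation was tested.

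The genes differed in how far dogs of the same condition lay apart. The SD of log2 CPM within groups, pooled over the 4 groups, was 0.72 for JUN, larger than that of 78.8% of the genes in the fit, and 0.22 for YY1, larger than that of 13.0%, beside a median of 0.41 over all genes. The highest dog exceeded the lowest 5.98-fold for JUN at mid-gestation, 1.94-fold in the antigestagen group and 1.59-fold at luteolysis. For YY1 these ratios were 1.39, 1.68 and 1.06.

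In the contrasts with luteolysis dogs, the log2 ratio of JUN from the edgeR fit was 2.09 (SE 0.52) for mid-gestation over luteolysis, −2.35 (SE 0.53) for luteolysis over antigestagen and 1.39 (SE 0.59) for luteal regression over luteolysis. As fold differences, JUN was 4.26-fold higher at mid-gestation, 5.08-fold higher in the antigestagen group and 2.61-fold higher in luteal regression than at luteolysis. For YY1 the log2 ratios were 0.41 (SE 0.18), −0.47 (SE 0.18) and 0.32 (SE 0.22), or 1.33-fold, 1.39-fold and 1.25-fold. All 3 contrasts share the same luteolysis dogs, and these values are descriptions with no test. Single dogs moved the JUN ratios: without Gold the ratio of mid-gestation over luteolysis was 1.46, and luteal regression over luteolysis ranged from 0.61 without Lissy to 1.88 without Mara. The remaining dog of that group was then assumed to vary like those of the other groups. Without Nescafe, the ratio of mid-gestation over luteolysis was 2.22 for JUN and 0.47 for YY1.

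Among mid-gestation, antigestagen treatment and luteal regression, the selection had used the mid-gestation and antigestagen values of JUN and the antigestagen values of YY1, so that all but 1 of the ratios between these groups are descriptions too. For mid-gestation over antigestagen, the log2 ratio of JUN was −0.26 (SE 0.41) and that of YY1 was −0.06 (SE 0.15). For luteal regression, JUN had −0.70 (SE 0.57) over mid-gestation and −0.96 (SE 0.58) over antigestagen, and YY1 had −0.15 (SE 0.21) over antigestagen. The selection of YY1 used neither the luteal regression nor the mid-gestation dogs, and its log2 ratio between these groups was −0.09 (95% confidence interval −0.53 to 0.35, edgeR quasi-likelihood test with Benjamini-Hochberg adjusted p = 0.854), which did not pass the threshold of p below 0.01 with an adjusted p below 0.1. The JUN ratio rested on single dogs. It was −0.89 for mid-gestation over antigestagen without Gold and −0.05 without Dardanel. For luteal regression it was −1.48 over mid-gestation without Lissy, −0.21 without Mara and −0.04 without Gold, and −1.74 over antigestagen without Lissy and −0.46 without Mara. YY1 turned to 0.07 for mid-gestation over antigestagen and to 0.01 for luteal regression over antigestagen without Zeynep.

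Whether the 3 contrasts without luteolysis dogs held called genes at all depended on the fit. With edgeR over all 15 dogs, 0 of 14399 genes (0% in either direction) were called in mid-gestation over antigestagen, 0 of 14685 in luteal regression over mid-gestation and 0 of 14578 in luteal regression over antigestagen. At an unadjusted p below 0.05 the numbers were 980, 2073 and 2496 genes. The DESeq2 Wald test called 87, 332 and 920 genes in the same contrasts and limma-voom with quality weights called 18, 2741 and 2408. With only the 2 groups compared in the fit, edgeR called 770 genes in luteal regression over mid-gestation, and other edgeR settings called 0 to 3 in luteal regression over antigestagen. EdgeR called 8 genes without Citir and 6 without Kurtulus in mid-gestation over antigestagen, and 91 without Citir and 1 each without Suzan and without Mara in luteal regression over antigestagen. In luteal regression over mid-gestation it called 1 gene without Mara, with the remaining dog of the group assumed to vary like those of the other groups.

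Within the conditions, JUN varied from dog to dog together with FOS, the best known partner of c-Jun in AP-1, and with JUND, another Jun family gene. Expressed as deviations of log2 CPM from the group means over 15 dogs, JUN and FOS had Pearson's r = 0.86 (two-sided permutation within groups, p = 0.00136, adjusted p = 0.0034) and Spearman's rho = 0.81 (permutation p = 0.00616, adjusted p = 0.024). JUN and JUND had r = 0.87 (permutation p = 0.00068, adjusted p = 0.0034) and rho = 0.65 (permutation p = 0.00959, adjusted p = 0.024). Without Gold and Dardanel, the dogs farthest from the median of JUN, r was 0.76 for FOS (permutation p = 0.0279; rho = 0.64) and 0.59 for JUND (permutation p = 0.0239; rho = 0.47) over 13 dogs. With each dog left out in turn, r stayed between 0.79 and 0.91 for FOS and between 0.67 and 0.95 for JUND.

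No such relation was found between JUN and YY1, with r = −0.19 (permutation p = 0.505, adjusted p = 0.632) and rho = −0.27 (permutation p = 0.328, adjusted p = 0.547). Without Gold and Dardanel r was 0.02 (permutation p = 0.958; rho = −0.13). In the luteolysis and luteal regression dogs YY1 deviated only from −0.05 (Senta) to 0.04 (Amy), so these values rest mostly on the other groups. Library size did not follow either gene, with r = −0.16 for JUN (permutation p = 0.478, adjusted p = 0.632; rho = −0.07, permutation p = 0.792) and r = 0.04 for YY1 (permutation p = 0.916, adjusted p = 0.916; rho = −0.02, permutation p = 0.944). Without the 2 dogs farthest from the median, these r were −0.28 for JUN (permutation p = 0.351; rho = −0.23) and 0.44 for YY1 (without Suzan and Zeynep, permutation p = 0.327; rho = 0.36). A family of 5 relations was computed and p-values were adjusted over it.

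**Figure D2:**
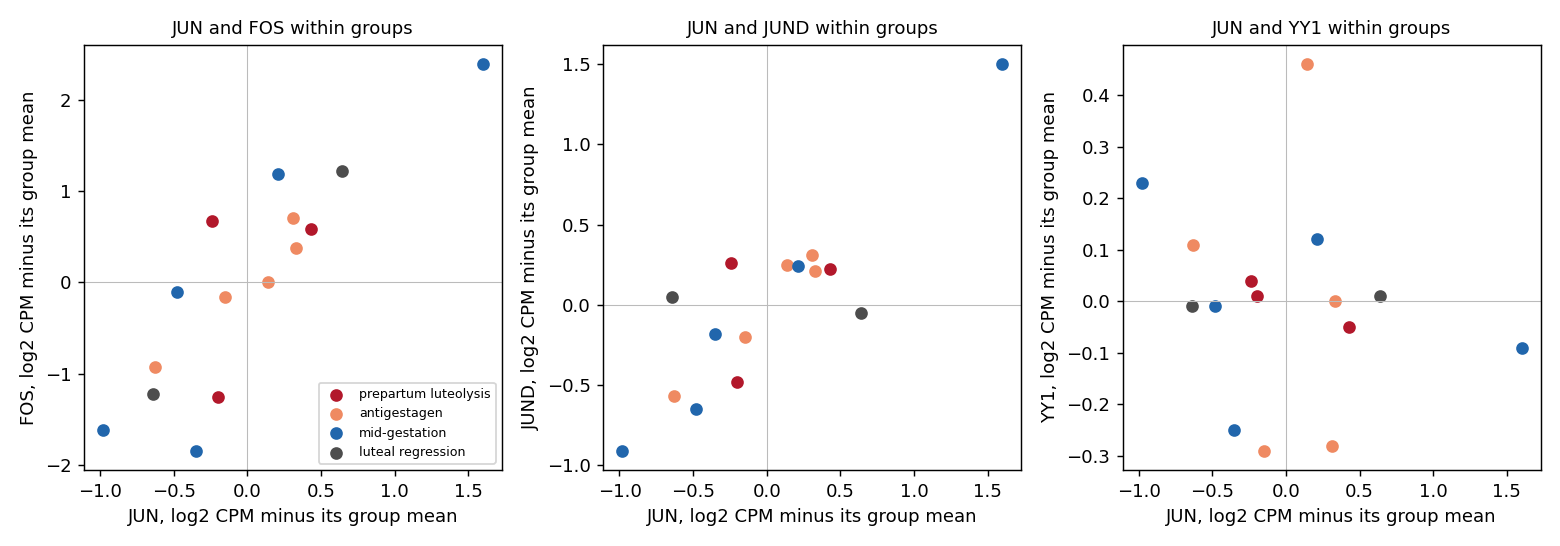
Deviation of JUN (horizontal axis, log2 CPM minus its group mean) against that of FOS, JUND and YY1 (vertical axes, same unit but different ranges) for the 15 dogs, coloured by group. Points rise from lower left to upper right for FOS (r = 0.86) and JUND (r = 0.87) with Gold at the upper end, and show no clear slope for YY1 (r = −0.19).

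Over the 15 dogs without regard to group, the genes whose log2 CPM was most like that of JUN, among the 2966 genes with a symbol, were JUND (r = 0.92, rank 1 of 14921 genes), FOS (r = 0.90, rank 3), MYC (r = 0.89, rank 4), KCTD6 (r = 0.85, rank 7) and IER2 (r = 0.85, rank 8). MYC and IER2 are, like JUN and FOS, immediate early genes. The least similar were RIPK1 (r = −0.78), AIDA (r = −0.78) and CAPZA1 (r = −0.80). For YY1 the most similar were RAB11B (r = 0.89, rank 5), GDI2 (r = 0.88), MOB2 (r = 0.88), CSRP2 (r = 0.88) and ZNF358 (r = 0.87, rank 13), and the least similar were SLIT2 (r = −0.87), COL8A1 (r = −0.88) and CBX3 (r = −0.90). RAB11B and GDI2 act in vesicle trafficking, and CBX3 encodes the heterochromatin protein HP1 gamma. These correlations include the difference between luteolysis and the other groups by which JUN and YY1 were chosen, and are given as a description.

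Further AP-1 genes could be followed only in part. Symbols were paired with gene identifiers only for genes in the tables of the study, where each has p below 0.01 in at least 1 contrast, which left 6 of the 14 AP-1 subunit genes (JUN, JUND, FOS, FOSL1, FOSL2 and BATF3), 0 of the 20 genes of the JNK pathway, and 5 of 25 immediate early genes. JUNB and FOSB were not among them. The number of called genes in each list, and the distance of its median log2 ratio from that of all genes, are therefore raised by the pairing itself, and nothing was read from them. Calls and p-values of single paired genes are favoured in the same way, here and below, and are no independent support.

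JUND was at 31.3 CPM in Amy, 18.7 CPM in Kimba and 30.5 CPM in Senta. The antigestagen dogs had 101 CPM (Citir), 70.6 CPM (Suzan), 94.3 CPM (Birnur), 55.0 CPM (Seran) and 96.7 CPM (Zeynep), with no overlap. How many of all genes separate 2 groups in this way was not counted, and nothing was read from such separations here or below. The mid-gestation dogs had 47.1 CPM (Nescafe), 63.0 CPM (Turgay), 28.3 CPM (Dardanel), 150.4 CPM (Gold) and 33.9 CPM (Kurtulus), and luteal regression had 48.7 CPM (Lissy) and 52.1 CPM (Mara). JUND was lower at luteolysis than in the antigestagen group (log2 ratio −1.64, SE 0.46, edgeR adjusted p = 0.0775), where 1.62% of all genes were called lower. This call ended without Kimba, Senta, Citir, Birnur or Zeynep (log2 ratios −1.43, −1.76, −1.56, −1.59 and −1.59, edgeR adjusted p from 0.111 to 0.312) and with only the 2 groups in the fit. JUND did not pass in mid-gestation over luteolysis (log2 ratio 1.27, SE 0.45, edgeR adjusted p = 0.126) or in luteal regression over luteolysis (0.91, SE 0.53, adjusted p = 0.37).

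FOS varied more than any other of these AP-1 genes apart from FOSL1. It was at 205 CPM in Amy, 53.4 CPM in Kimba and 194 CPM in Senta, and in the antigestagen dogs at 1644 CPM (Citir), 899.8 CPM (Suzan), 1303 CPM (Birnur), 526 CPM (Seran) and 1008 CPM (Zeynep). At mid-gestation it spread from 115 CPM (Nescafe) and 135 CPM (Dardanel) through 386 CPM (Kurtulus) and 946 CPM (Turgay) to 2189.7 CPM (Gold), and in luteal regression it was 570.2 CPM in Lissy and 105 CPM in Mara. All antigestagen dogs lay above all luteolysis dogs, and the difference did not pass the threshold (luteolysis over antigestagen log2 ratio −2.84, SE 0.93, edgeR adjusted p = 0.126). Mid-gestation over luteolysis did not pass either (log2 ratio 2.32, SE 0.91, edgeR adjusted p = 0.164).

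FOSL1, which encodes the Fos-related protein Fra-1, went the other way in 2 luteolysis dogs. Its level was 7.71 CPM in Kimba and 12.2 CPM in Senta but 0.45 CPM in Amy, and it did not exceed 1.79 CPM in any other dog, with 0 reads in Turgay. FOSL1 was lower at mid-gestation than at luteolysis (log2 ratio −3.81, SE 1.03, edgeR adjusted p = 0.0516), where 5.73% of all genes were called lower and 2.43% higher. The call ended without Kimba, Senta, Nescafe or Dardanel (log2 ratios −3.71, −3.08, −3.59 and −3.59, edgeR adjusted p from 0.1 to 0.317) and with only the 2 groups in the fit. FOSL1 did not pass in luteolysis over antigestagen (log2 ratio 2.87, SE 1.00, edgeR adjusted p = 0.146).

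FOSL2, the gene of Fra-2, was not called in mid-gestation over luteolysis (log2 ratio −0.81, SE 0.29, edgeR adjusted p = 0.131) or in luteolysis over antigestagen (−0.26, SE 0.30, adjusted p = 0.693). Its mid-gestation dogs (14.0 to 39.5 CPM) all lay below its antigestagen dogs (43.0 to 87.3 CPM), with a log2 ratio of −1.06 (SE 0.26) that did not pass after adjustment (edgeR adjusted p = 0.483). BATF3, a leucine zipper gene of dendritic cells, passed in none of the 6 contrasts with edgeR over all 15 dogs. The 5 AP-1 subunits other than JUN had a median log2 ratio of −0.41 in mid-gestation over luteolysis and −0.26 in luteolysis over antigestagen, beside −0.02 and 0.02 over all genes tested.

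**Figure D3:**
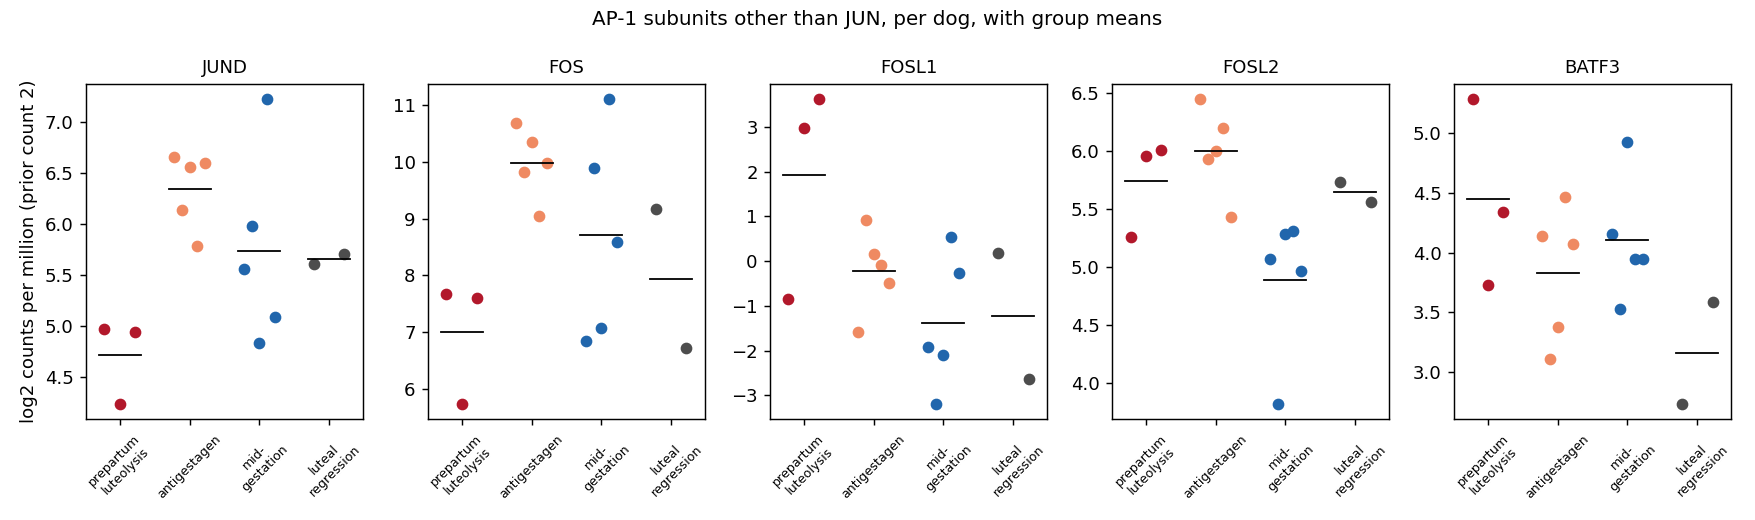
Log2 CPM (vertical axes, prior count 2) of the 5 AP-1 subunit genes other than JUN in each dog (points) by group, with group means (lines). The group means of JUND and FOS are lowest at luteolysis and Gold has their highest values, whereas FOSL1 is high only in Kimba and Senta (7.71 and 12.2 CPM).

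Among the other immediate early genes, MYC and IER2 followed JUN in showing their lowest group mean at luteolysis, without passing in any contrast with edgeR over all 15 dogs. MYC was at 27.1 CPM in Amy, 63.5 CPM in Kimba and 75.2 CPM in Senta, below the antigestagen dogs (97.3 to 214 CPM, luteolysis over antigestagen log2 ratio −1.46, SE 0.55, edgeR adjusted p = 0.171). IER2 was at 25.1, 12.6 and 26.3 CPM in the same dogs and at 45.3 to 82.9 CPM in the antigestagen dogs (log2 ratio −1.57, SE 0.61, edgeR adjusted p = 0.189). IER3 went the opposite way and was lower at mid-gestation than at luteolysis (log2 ratio −1.80, SE 0.54, edgeR adjusted p = 0.0697), with 19.4 CPM in Senta, 8.18 CPM in Kimba and 3.08 CPM in Amy. The IER3 call ended without Senta (log2 ratio −0.93, edgeR adjusted p = 0.574) and without Kimba, Nescafe, Turgay, Dardanel or Kurtulus (adjusted p from 0.111 to 0.141). It also ended with only the 2 groups in the fit (adjusted p = 0.172). It was the only call among the 5 paired genes of this list with edgeR over all 15 dogs, in a contrast where 5.73% of all genes were called lower and 2.43% higher. The median log2 ratios of the 5 genes were −1.38 for mid-gestation over luteolysis, 0.81 for luteolysis over antigestagen and −1.37 for luteal regression over luteolysis, beside −0.02, 0.02 and −0.05 over all genes. CTGF and DUSP2 were, like IER3, highest in Kimba or Senta. Their log2 ratios for mid-gestation over luteolysis were −1.38 (SE 0.68, edgeR adjusted p = 0.269) and −2.96 (SE 1.01, adjusted p = 0.113). Gold, the mid-gestation dog with the highest JUN, also had the highest JUND, FOS, MYC and IER2 of all 15 dogs (MYC 394 CPM, IER2 110.4 CPM). All of these are among the 5 genes most like JUN over the same dogs, and nothing was read from their likeness to JUN in Gold or at luteolysis.

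Of the 20 genes listed as AP-1 targets 9 were paired with an identifier, again only because they are in these tables. In mid-gestation over luteolysis 4 of these 9 were called lower (MMP1, PLAUR, CCL2 and IL1B; 5.73% of all genes) and 0 higher (2.43%), in luteolysis over antigestagen 3 were called higher (MMP1, PLAUR and CXCL8; 3.12% of all genes) and 0 lower (1.62%), and in luteal regression over luteolysis 3 were called lower (PLAUR, TIMP1 and CCL2; 3.58% of all genes) and 0 higher (1.52% of all genes). The median log2 ratios of the 9 genes in these contrasts were −2.35, 1.61 and −3.07, beside −0.02, 0.02 and −0.05 over all genes, a distance that the pairing favours. None of the 9 was called in the contrasts without luteolysis dogs with edgeR over all 15 dogs.

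For MMP1, PLAUR, CCL2, CXCL8 and IL1B the highest values were those of Kimba and Senta, but not for TIMP1. MMP1, the interstitial collagenase, was at 322 CPM in Kimba and 280.4 CPM in Senta but at 0.225 CPM in Amy, and it did not exceed 14.1 CPM (Lissy) in any other dog. PLAUR, the urokinase receptor, was at 51.8 CPM in Kimba, 57.8 CPM in Senta and 8.18 CPM in Amy, with 3.34 to 10.6 CPM in the other dogs. CCL2, a monocyte attracting chemokine, was at 593 CPM in Kimba, 818 CPM in Senta and 35.1 CPM in Amy. CXCL8, which attracts neutrophils, was at 311 CPM in Kimba, 282 CPM in Senta and 86.0 CPM in Amy, above all antigestagen dogs (4.82 to 46.7 CPM), and at 177 CPM in Gold. TIMP1, an inhibitor of metalloproteinases, was at 814 CPM in Amy, 1550.2 CPM in Kimba and 1798 CPM in Senta, and at 194 CPM in Lissy and 136 CPM in Mara. It was highest in Zeynep (2239 CPM), and the other antigestagen dogs had 421 to 1626 CPM and the mid-gestation dogs 508 to 1165 CPM. JUN itself was similarly low in Amy and Kimba.

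In mid-gestation over luteolysis MMP1 had a log2 ratio of −9.13 (SE 1.57) and PLAUR −2.81 (SE 0.47), each with an edgeR adjusted p of 0.0089, and both calls were kept in all 8 fits with a dog left out. Both genes had already been selected by the pairing, so these calls are no independent support. The size of the MMP1 ratio is uncertain, since its mid-gestation counts ran from 1 to 14 reads. Limma-voom gave a similar ratio but did not call it (−9.35, adjusted p = 0.0539). CCL2 (log2 ratio −2.48, edgeR adjusted p = 0.0772) and IL1B (−3.22, adjusted p = 0.0858) lost their calls without Kimba, Senta, Nescafe, Turgay, Dardanel or Kurtulus, and IL1B also without Gold. Without Senta their ratios were −1.85 (edgeR adjusted p = 0.417) and −1.96 (adjusted p = 0.55), and without the other dogs named their adjusted p lay between 0.105 and 0.196. In luteolysis over antigestagen, PLAUR (log2 ratio 2.21, edgeR adjusted p = 0.0306) was not called without Kimba (1.96, adjusted p = 0.107) or without Senta (1.81, adjusted p = 0.254), and MMP1 (7.30, adjusted p = 0.0246) was not called without Senta (6.98, adjusted p = 0.137). The CXCL8 call (log2 ratio 3.52, edgeR adjusted p = 0.0971) ended without Kimba, Senta, Suzan, Birnur, Seran or Zeynep (adjusted p from 0.149 to 0.359). The calls of PLAUR, TIMP1 and CCL2 in luteal regression over luteolysis (log2 ratios −3.00, −3.07 and −4.08, edgeR adjusted p = 0.0473, 0.0463 and 0.0858) ended without Senta (log2 ratios −2.56, −2.79 and −3.41, edgeR adjusted p = 0.197, 0.175 and 0.28). They also ended without Lissy (−3.12, −3.35 and −5.94, adjusted p = 0.372 each) and without Mara (−2.88, −2.84 and −3.29, adjusted p = 0.37, 0.35 and 0.428), where the remaining dog was assumed to vary like those of the other groups. With only the 2 groups compared in the fit, all of these calls ended except those of MMP1 and PLAUR in mid-gestation over luteolysis (edgeR adjusted p from 0.132 to 0.277), and limma-voom did not call IL1B.

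**Figure D4:**
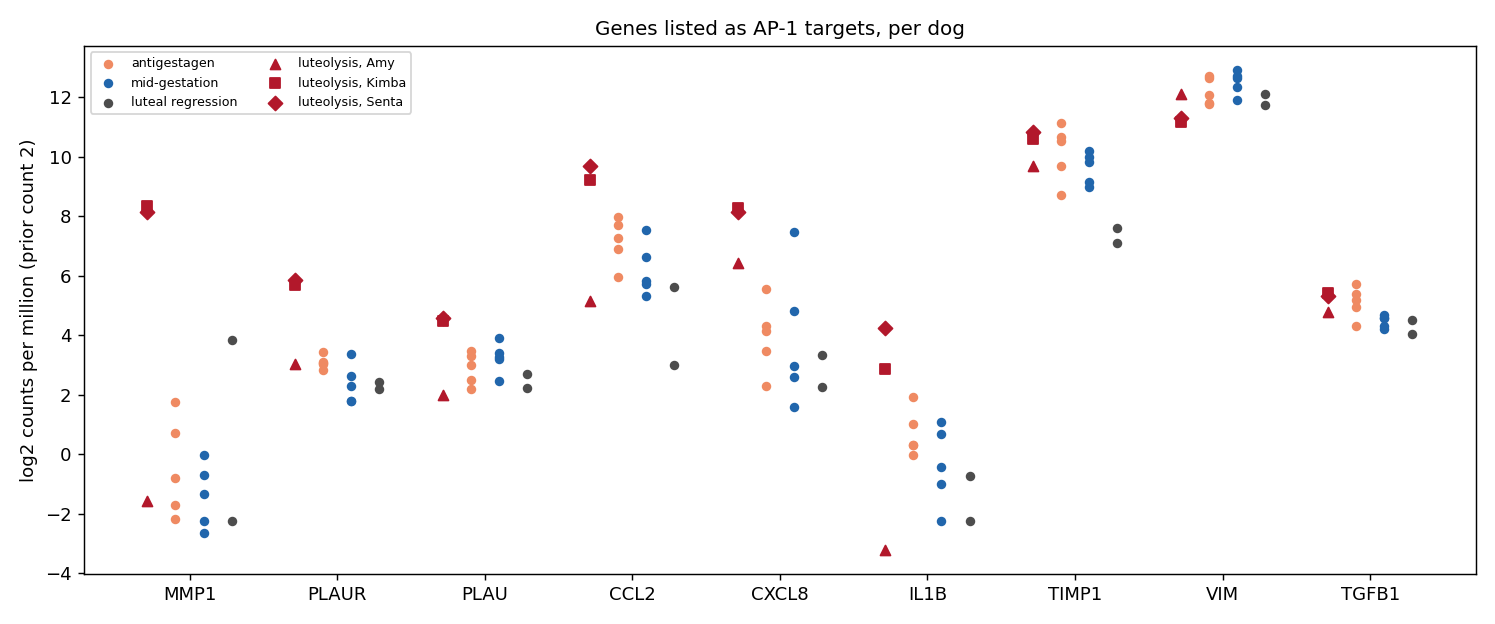
Log2 CPM (vertical axis, prior count 2) of the 9 genes listed as AP-1 targets (horizontal axis) in each dog, coloured by group, with the luteolysis dogs Amy (triangle), Kimba (square) and Senta (diamond) marked. Kimba and Senta lie above all other dogs for MMP1, PLAUR, PLAU, CCL2, CXCL8 and IL1B, whereas Amy has only 0.225 CPM of MMP1.

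For YY1, 10 of 48 listed partner genes were paired with an identifier. Of those called, PCGF2 was lower at luteolysis and the others were higher. In mid-gestation over luteolysis 1 was called higher (PCGF2; 2.43% of all genes) and 4 lower (HDAC3, PRMT1, PHC2 and RYBP; 5.73%). In luteolysis over antigestagen 3 were called higher (HDAC3, PRMT1 and UCHL5; 3.12% of all genes) and 1 lower (PCGF2; 1.62%), and in luteal regression over luteolysis 0 were called higher (1.52%) and 3 lower (HDAC3, PRMT1 and PHC2; 3.58%). The median log2 ratios were −0.21, 0.25 and −0.24, beside −0.02, 0.02 and −0.05 over all genes, and the pairing favours such counts and medians. None was called with edgeR over all 15 dogs in the 3 contrasts without luteolysis dogs, and the YY1 relatives YY2 and ZFP42 were not paired.

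HDAC3, a histone deacetylase, was at 92.7 CPM in Amy, 131 CPM in Kimba and 135 CPM in Senta, at 66.1 to 75.2 CPM at mid-gestation, at 72.0 to 95.7 CPM in the antigestagen group and at 67.8 and 69.7 CPM in luteal regression. The luteolysis dogs lay above all others except Zeynep (95.7 CPM), which exceeded Amy. Mid-gestation over luteolysis gave a log2 ratio of −0.77 (SE 0.15), luteolysis over antigestagen 0.62 (SE 0.15) and luteal regression over luteolysis −0.80 (SE 0.19), each called (edgeR adjusted p = 0.014, 0.0495 and 0.056). Without Senta none of the 3 calls was kept (log2 ratios −0.65, 0.51 and −0.65, edgeR adjusted p = 0.131, 0.337 and 0.257), and the second was also lost without Kimba (0.55, adjusted p = 0.163) or Birnur (0.60, adjusted p = 0.107). The third was also lost without Lissy (−0.82, adjusted p = 0.379) or Mara (−0.78, adjusted p = 0.374).

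PRMT1, which methylates arginines of histones, had 144 CPM in Amy, 179 CPM in Kimba and 267 CPM in Senta, against 96.8 to 125 CPM at mid-gestation and 92.9 to 157 CPM in the antigestagen group. Its log2 ratios were −0.82 (SE 0.21, edgeR adjusted p = 0.0395), 0.76 (SE 0.21, adjusted p = 0.071) and −0.92 (SE 0.27, adjusted p = 0.092) in the same order, and without Senta none of these calls was kept (log2 ratios −0.52, 0.47 and −0.58, edgeR adjusted p = 0.344, 0.496 and 0.394). In luteolysis over antigestagen the PRMT1 call also ended without Kimba, Citir, Suzan or Birnur (adjusted p from 0.111 to 0.148). In luteal regression over luteolysis it ended without Lissy (−0.90, adjusted p = 0.461) and without Mara (−0.94, adjusted p = 0.399), and also under upper-quartile scaling, under the size factors of DESeq2 and with no filter on low counts.

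Among the Polycomb genes, PCGF2 was lower at luteolysis, at 32.7 CPM in Amy, 30.8 CPM in Kimba and 23.8 CPM in Senta, against 40.0 to 48.4 CPM at mid-gestation and 40.7 to 70.9 CPM in the antigestagen group. Mid-gestation over luteolysis had a log2 ratio of 0.60 (SE 0.19) and luteolysis over antigestagen −0.71 (SE 0.19), with edgeR adjusted p = 0.0927 and 0.071. Both calls ended without Kimba (0.64 and −0.75, edgeR adjusted p = 0.184 and 0.157) or Senta (0.49 and −0.60, adjusted p = 0.402 and 0.364), and the first also without Nescafe, Dardanel, Gold or Kurtulus (adjusted p from 0.116 to 0.154) and with no filter on low counts (adjusted p = 0.121). PHC2 was highest in Senta (373 CPM) and Kimba (228 CPM), while Amy (97.6 CPM) lay among the other dogs, and in mid-gestation over luteolysis its log2 ratio of −1.14 (SE 0.28, edgeR adjusted p = 0.0337) became −0.61 (adjusted p = 0.352) without Senta. In luteal regression over luteolysis PHC2 had −1.34 (SE 0.37, edgeR adjusted p = 0.0771), a call that ended without Senta (−0.77, adjusted p = 0.331), Lissy (−1.32, adjusted p = 0.424) or Mara (−1.38, adjusted p = 0.376).

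RYBP, which binds YY1 directly, had 6.31 CPM in Amy, 13.6 CPM in Kimba and 14.1 CPM in Senta and 2.88 to 6.51 CPM at mid-gestation (log2 ratio −1.28, SE 0.36, edgeR adjusted p = 0.0624), a call that ended without Kimba, Senta, Turgay, Dardanel or Gold (adjusted p from 0.112 to 0.35). UCHL5, a subunit of INO80, was higher in all luteolysis dogs (135 to 140.1 CPM) than in all antigestagen dogs (89.1 to 104 CPM, log2 ratio 0.49, SE 0.14, edgeR adjusted p = 0.0798), a call kept only without Amy and ended without Kimba, Senta, Citir, Suzan, Birnur, Seran or Zeynep (adjusted p from 0.103 to 0.364), and with no filter on low counts (adjusted p = 0.122). EZH2, SFMBT2 and BAP1 passed in none of the 6 contrasts with edgeR over all 15 dogs. With only the 2 groups compared in the fit, HDAC3 in mid-gestation over luteolysis was the single call of these partners in the luteolysis contrasts that was kept.

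**Figure D5:**
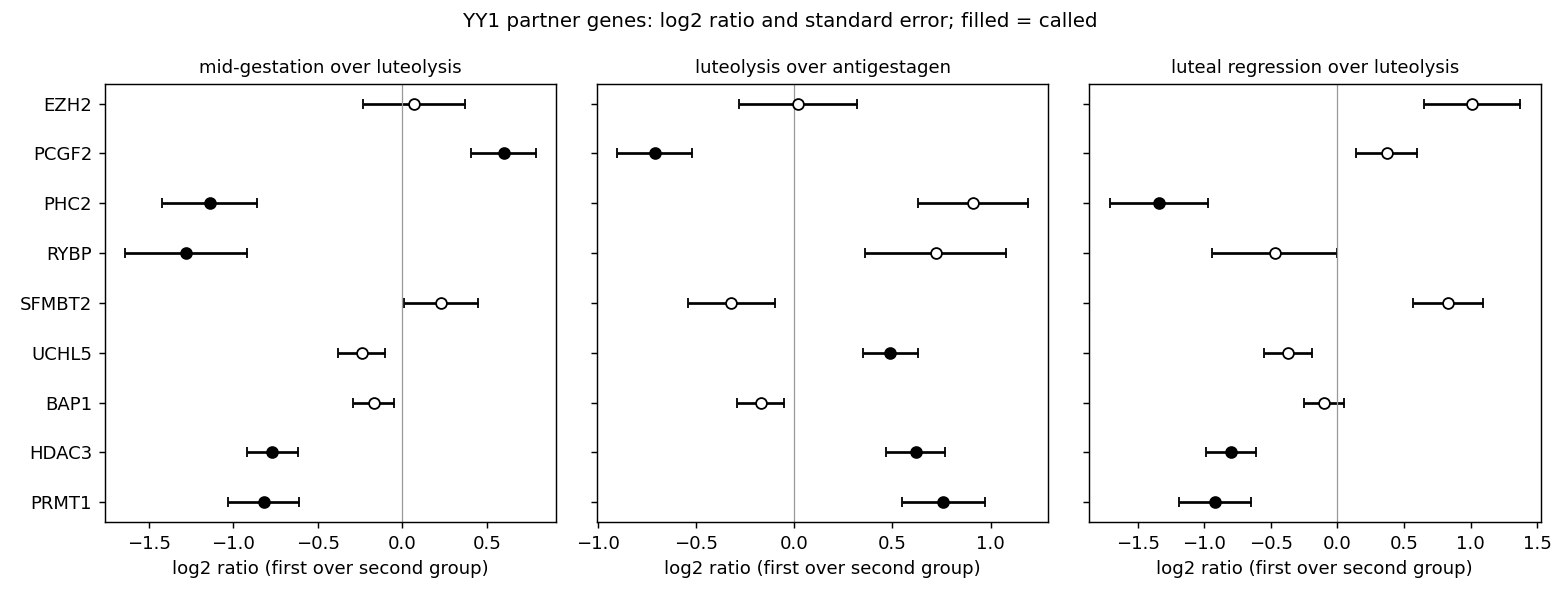
Log2 ratio (horizontal axes, with standard error) of 9 YY1 partner genes in the 3 contrasts with luteolysis dogs, with filled points for genes called at p below 0.01 and adjusted p below 0.1. HDAC3 and PRMT1 were called higher at luteolysis in each contrast, and PCGF2 was called lower at luteolysis in 2 of them.

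Some of these counts may hold reads of neighbouring genes, since the library kit does not mark the strand. In the RefSeq gene table of a newer dog assembly, 14 of the 43 named genes found there overlapped another gene, among them HDAC3 (with RELL2), TIMP1 (with SYN1), PHC2, PCGF2 and FOSL2, whereas JUN, YY1, JUND, FOS, FOSL1, MMP1 and PRMT1 overlapped none. The values of the overlapping genes are uncertain to that extent. YY1 has a close relative, YY2, in the same table, and how reads shared by both were counted is not given in the sources used here.

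The tissue could be checked only against 5 of 20 genes listed as luteal (CYP17A1, HSD3B7, GATA4, GATA6 and PRLR), because STAR and CYP11A1, which define steroidogenic luteal cells, were not paired with identifiers. These 5 genes alone do not establish luteal identity. All 5 had reads in every dog, and their summed level ran from 387 CPM (Seran) to 1145 CPM (Gold). CYP17A1, the most abundant of them over all dogs, averaged 236 CPM at luteolysis, 97.9 CPM in the antigestagen group, 473 CPM at mid-gestation and 723 CPM in luteal regression. HSD3B7 was called lower, and GATA4 higher, both at mid-gestation and in luteal regression than at luteolysis, and GATA6 was called higher in luteal regression (edgeR adjusted p from 0.0193 to 0.092). Of all genes, 2.43% were called higher and 5.73% lower at mid-gestation, and 1.52% higher and 3.58% lower in luteal regression. All 5 calls ended without Senta (adjusted p from 0.117 to 0.37). GATA4 also ended without Amy, Nescafe, Turgay or Gold at mid-gestation and without Amy in luteal regression, and GATA6 without Kimba (adjusted p from 0.102 to 0.15). In luteal regression all 3 calls also ended without Lissy (log2 ratios −1.57 for HSD3B7, 0.86 for GATA4 and 1.17 for GATA6, adjusted p = 0.372, 0.403 and 0.372) and without Mara (−1.64, 0.75 and 0.52, adjusted p = 0.327, 0.415 and 0.546). With only the 2 groups compared in the fit, only HSD3B7 in mid-gestation over luteolysis was called, and with no filter on low counts GATA4 and GATA6 were not called in luteal regression over luteolysis (adjusted p = 0.117 and 0.112).

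Markers of other cell types were set beside the JUN and YY1 values. Of 16 leukocyte markers 8 were paired and none was at 0 in any dog. Their summed level was 2581 CPM in Amy, 990.5 CPM in Kimba and 2161 CPM in Senta, 1258 to 2179 CPM in the antigestagen dogs, 927 to 2266 CPM at mid-gestation and 868 and 772 CPM in luteal regression. Most of this sum was CD74 (2251 CPM in Amy, 753 CPM in Kimba and 1901 CPM in Senta). C1QB (65 to 152 CPM at luteolysis) and C1QC (62.3 to 156 CPM) had the same order, highest in Amy and lowest in Kimba. In contrast, Amy was the lowest luteolysis dog for ITGAM (4.5 CPM beside 26 in Kimba and 8.52 in Senta), CSF3R (1.13 beside 48.6 and 11.8) and S100A9 (1.73 beside 18.7 and 19.8). Of the 8 only ITGAM was called with edgeR over all 15 dogs, lower in luteal regression than at luteolysis (log2 ratio −2.03, SE 0.60, edgeR adjusted p = 0.0911), where 3.58% of all genes were called lower and 1.52% higher. This call ended without Kimba (−1.03, adjusted p = 0.201), Senta (−2.21, adjusted p = 0.205), Lissy (−2.11, adjusted p = 0.437) or Mara (−1.96, adjusted p = 0.424). It also ended with upper-quartile scaling (adjusted p = 0.103), with no filter on low counts (0.104) and with only the 2 groups compared in the fit (0.284). PTPRC, CD14 and CD68 were not paired.

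Of 9 endothelial markers 3 were paired (PECAM1, VWF and TEK), with a summed level of 365 CPM in Amy, 798 CPM in Kimba, 718 CPM in Senta, 377 to 775 CPM in the antigestagen group, 215 to 534 CPM at mid-gestation and 231 and 243 CPM in luteal regression, and with VWF as the most abundant gene. PECAM1 was called lower at mid-gestation and in luteal regression than at luteolysis, and TEK in luteal regression (edgeR adjusted p = 0.0906, 0.0904 and 0.0854), beside 5.73% of all genes called lower at mid-gestation and 3.58% in luteal regression, and all of these calls ended without Senta (adjusted p from 0.297 to 0.401). In luteal regression PECAM1 and TEK also ended without Lissy (log2 ratios −1.75 and −1.36, adjusted p = 0.475 and 0.424) and without Mara (−1.97 and −1.32, adjusted p = 0.386 and 0.396). PECAM1 also ended without Kimba in both contrasts (adjusted p = 0.271 and 0.121) and at mid-gestation without Turgay, Dardanel, Gold or Kurtulus (adjusted p from 0.103 to 0.147), and the 3 calls ended with only the 2 groups compared in the fit (0.162, 0.234 and 0.23). Of 10 stromal and mural markers 4 were paired, none at 0 in any dog, with COL1A2 as the most abundant and with a summed level of 2534 CPM in Amy, 4577 CPM in Kimba and 1902 CPM in Senta, 3358 to 9207 CPM in the antigestagen group, 3682 to 14901 CPM at mid-gestation and 5361 and 7034 CPM in luteal regression. COL1A1 and COL3A1 were called higher at mid-gestation than at luteolysis (edgeR adjusted p = 0.0641 and 0.0962; 2.43% of all genes) and lost their calls without Amy, Senta, Nescafe or Gold, COL3A1 also without Dardanel or Kurtulus (adjusted p from 0.0812 to 0.426). Both also ended with only the 2 groups compared in the fit (adjusted p = 0.133 and 0.154), and COL3A1 with no filter on low counts (0.108). The part of these cell types in the levels of JUN, YY1 and the listed genes was not tested.

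The number of called genes in the luteolysis contrasts also depended on single dogs. EdgeR called 1197 genes in mid-gestation over luteolysis, 687 in luteolysis over antigestagen and 754 in luteal regression over luteolysis. Without Senta these numbers were 112, 6 and 5, without Kimba 474, 229 and 1035, and without Amy 2434, 2169 and 1593. Without Gold the first was 703 and without Dardanel 735, and the second was 320 without Birnur and 437 without Zeynep. The third was 0 without Lissy and 1 without Mara, with the remaining dog of that group assumed to vary like those of the other groups. Every call named above in a contrast with luteolysis dogs is to be read with these numbers. The same holds for the pairing, which admitted only genes with p below 0.01 in a contrast of the study.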

How the data were processed

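Poly-A enriched RNA of 15 CL was sequenced by the authors as single reads of 125 bases with an unstranded kit, and RNA integrity numbers ran from 7.2 to 9.5. The deposited values are raw read counts per Ensembl gene, which the authors obtained with STAR 2.5.1b and featureCounts on CanFam 3.1. All 3148 counts of at least 10000 carry only 4 significant digits, and no JUN or YY1 count is that high. From the counts, edgeR 4.0.16 in R 4.3.3 fitted all 15 dogs with a mean per group after TMM scaling, over the 14922 genes whose counts averaged 10 or more in some group. A gene was called at p below 0.01 and Benjamini-Hochberg adjusted p below 0.1. Log2 CPM used a prior count of 2, and deviations were permuted 100000 times within groups. DESeq2 1.42.0, limma 3.58.1, other scalings and filters, fits of only the groups compared and fits without each dog were alternatives. Symbols came from tables of the study that pair 2970 identifiers with symbols and list genes with p below 0.01 in at least 1 contrast. The members and the 12 gene lists were chosen with earlier results of these data known. Named were JUN, YY1 and the paired Jun and Fos genes, list genes called in any contrast (at most 5 per list and contrast), the 5 most and 3 least similar genes, and the most abundant marker of each list.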

Additional observations from a re-analysis of the deposited data

Results flagged for a closer look

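In groups of 5 dogs, a dog was singled out where its gap to the nearest other dog exceeded 0.71 of the range of the group (Dixon's ratio). Among 90 groups, from 45 named genes at mid-gestation and in the antigestagen group, 11 had such a dog. About 1 in 20 groups of normally distributed values pass this cut, but CPM need not be normal and no chance rate applies to this count. JUN was selected on its values in both groups, and YY1 on its antigestagen values. JUND, MYC, RAB11B and RIPK1 are among the genes named as most or least like JUN or YY1 over the same dogs. At mid-gestation it was Gold each time, with 227 CPM of JUN beside 37.9 to 86.6 CPM in the other dogs, 150.4 CPM of JUND beside 28.3 to 63.0 CPM, 394 CPM of MYC beside 62.8 to 127 CPM and 177 CPM of CXCL8 beside 2.89 to 28.1 CPM. In the antigestagen group Zeynep was highest for PCGF2 (70.9 CPM beside 40.7 to 42.6 CPM), HDAC3 (95.7 CPM beside 72.0 to 75.6 CPM) and RAB11B (280.3 CPM beside 159.9 to 188 CPM) and lowest for RIPK1 (28.8 CPM beside 37.5 to 40.2 CPM). Seran was lowest for GATA4 (66.6 CPM beside 100.2 to 109 CPM) and highest for ITGAM (20.2 CPM beside 12 to 13.1 CPM) and TEK (143 CPM beside 77.3 to 79.1 CPM). On log2 CPM, looked at after seeing the data, the 4 results with Gold did not pass (ratios 0.54 for JUN, 0.52 for JUND, 0.62 for MYC and 0.45 for CXCL8) and the other 7 did. Since the genes are correlated across dogs, these are not independent, and their causes were not tested.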

How the results depend on the processing

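The 7 alternative settings and the fits without single dogs left JUN higher outside luteolysis throughout, and likewise YY1, whose ratio of luteal regression over luteolysis moved beyond the small spread of its groups to 0.42 with upper-quartile scaling and from 0.30 to 0.37 without single dogs. That scaling moved the median log2 ratio of all genes in this contrast from −0.05 to 0.06. In mid-gestation over antigestagen, YY1 became 0.01 with limma-voom and ran from −0.13 to 0.07 without single dogs, and in luteal regression over antigestagen it ran from −0.22 to 0.01. YY1 was not called in luteal regression over mid-gestation in any of the 14 fits (adjusted p from 0.754 to 0.988). Genes called moved most. With DESeq2 there were 1486 in luteolysis over antigestagen, 1567 in luteal regression over luteolysis, 87 in mid-gestation over antigestagen, 332 in luteal regression over mid-gestation and 920 in luteal regression over antigestagen. With limma-voom there were 3220 in mid-gestation over luteolysis and, in the order above, 2833, 3646, 18, 2741 and 2408. With only the groups compared there were 422 in mid-gestation over luteolysis, 3 in luteolysis over antigestagen, 0 in luteal regression over luteolysis, 770 in luteal regression over mid-gestation and 1 in luteal regression over antigestagen, where fewer dogs entered the fit. Luteal regression over antigestagen had 2 with upper-quartile scaling, 3 with the size factors of DESeq2 and 1 with a mean count of at least 50. Of the genes called in luteal regression over luteolysis, 29.8% were higher, and 42.9% with upper-quartile scaling. Of those in mid-gestation over luteolysis 29.8% were higher, and 40.3% with DESeq2 and 43.9% with limma-voom. Of those in luteolysis over antigestagen 65.8% were higher, and 53.3% with DESeq2. Without single dogs, genes called ran from 112 to 2434, from 6 to 2169 and from 0 to 1593 in the luteolysis contrasts, from 0 to 8 in mid-gestation over antigestagen, from 0 to 1 in luteal regression over mid-gestation and from 0 to 91 in luteal regression over antigestagen. Where a group held 1 dog, that dog was assumed to vary like the other groups. The ratios of FOS and FOSL2 in luteal regression over luteolysis ran from −0.52 to 1.92 and from −0.31 to 0.04. Leaving out single dogs in the deviations was chosen after seeing the data, and the relation of YY1 with library size ran from −0.42 to 0.35 and was −0.02 with the size factors of DESeq2. Over 709 settings of the other named results, 518 kept their side of the threshold, 174 lost a call, 15 gained one and 2 changed direction. The causes were not tested. JUNB was not paired, so its relation with JUN was not run.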
